A study of Rattus norvegicus with 7 samples.

Results

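The miR-30 family was examined in the livers of adult male Sprague-Dawley rats fed a diet with 50 mg/kg potassium perfluorooctanesulfonate (PFOS, a persistent fluorinated surfactant) or a control diet. Both groups were fed for 28 days. Liver RNA of each rat, tagged with the dye Cy3, was read on its own 1-colour Agilent miRNA array, which left 4 PFOS arrays and 3 control arrays after the submitters set aside 1 of the 4 control samples on quality grounds. Members were taken by name, as every non-control probe set named miR-30a to miR-30e, either arm. This gave 11 of the 677 miRNAs on the array, 5 from the 5p arm of their precursors and 6 from the 3p arm, read by 28 of 1644 probes. An asterisk in an array name marks the 3p arm.

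A miRNA precursor is a hairpin from which Dicer cuts a short duplex, and 1 strand of it is usually loaded into an Argonaute protein while the other is degraded. The loaded strand pairs with mRNAs mainly through its seed, bases 2 to 8. The 5p strands are the dominant products of the miR-30 precursors. In mammals the family is abundant in epithelial tissues, liver and kidney among them, and its reported targets include the transcription factor Snai1, the autophagy protein Beclin 1 and connective tissue growth factor.

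Mature sequences of 6 of the 11 members were taken from RefSeq (build GRCr8). They are shown 5′ to 3′ with the seed in capitals, because the seed sets the family and because near-identical members are hard to tell apart by hybridisation.

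miR-30a (5p): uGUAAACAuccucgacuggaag

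miR-30e (5p): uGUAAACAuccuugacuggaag

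miR-30c (5p): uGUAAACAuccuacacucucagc

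miR-30a* (3p): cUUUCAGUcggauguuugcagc

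miR-30c-1* (3p): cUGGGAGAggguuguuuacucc

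miR-30c-2* (3p): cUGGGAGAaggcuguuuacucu

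The 3 listed 5p strands shared the seed GUAAACA. Counted from 1 at the 5′ end, miR-30a and miR-30e differed at 1 of 22 positions, C13U from miR-30a to miR-30e, whereas miR-30c differed from either at 5 of the first 22 positions. The 3p strands fell into other seed groups, UUUCAGU for miR-30a* and UGGGAGA for both miR-30c 3p strands. These miR-30c strands differed from each other at 3 positions (G9A, U12C and C22U from miR-30c-1* to miR-30c-2*). One other rat miRNA in the RefSeq table carried the GUAAACA seed, miR-384-5p (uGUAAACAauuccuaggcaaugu), and it was above background on 0 of 7 arrays. Mature sequences of miR-30b, miR-30d and miR-30e* were not used here.

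The precursor of miR-30a, with both strands measured, is shown with its 5p and then its 3p strand in capitals.

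Mir30a: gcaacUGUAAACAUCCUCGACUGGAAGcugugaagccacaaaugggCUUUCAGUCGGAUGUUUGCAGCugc

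Within the Mir30e precursor the stretch closest to miR-30a* read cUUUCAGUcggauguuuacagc, the same at 21 of 22 positions (G18A from miR-30a* to the Mir30e stretch). The family comes from 6 precursor genes in 3 neighbouring pairs in the GRCr8 gene table. Mir30e and Mir30c1 lay 2.9 kb apart on chromosome 5, both inside the span of Nfyc, which codes for a subunit of a CCAAT-binding transcription factor. Mir30b and Mir30d lay 3.7 kb apart on chromosome 7, inside an uncharacterised long non-coding RNA gene. Mir30a and Mir30c2 lay 19.7 kb apart on chromosome 9. The 5p strand miR-30c is the same molecule from Mir30c1 and Mir30c2, so its signal cannot be assigned to either gene.

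Detection on an array needed 1 or more probes of the miRNA to have over 50% of their unflagged spots marked well above background by the scanner software. The test took in the 175 miRNAs detected on 3 or 4 of the PFOS arrays or on every control array. All 5 of the 5p members and 2 of the 3p members, miR-30a* and miR-30e*, were detected on all 7 arrays and were tested. The other 4 were not tested. Of these, miR-30b-3p was detected on 2 PFOS arrays and 0 control arrays, and miR-30c-2* on 1 PFOS array and 0 control arrays. For miR-30c-1* and miR-30d* it was 0 arrays in either group. Detection did not go with a higher reading for miR-30b-3p. Its scaled signal ran from 17.9 to 27.5 on PFOS arrays and from 21.8 to 34.4 on control arrays, so no fold change is given. The scaled signals of miR-30c-2*, at 8.47 to 9.98 on PFOS and 8.51 to 9.53 on control arrays, were below the floor of 12.1 set for all miRNAs.

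PFOS arrays were brighter as a whole. The median unscaled signal of the miRNAs detected on all arrays was 226 to 326 on PFOS and 133 to 176 on control arrays, 1.74-fold higher in PFOS. The signal of the labelling spike-in was 2.27-fold higher on PFOS arrays, and the hybridisation spike-in 0.942-fold. All arrays shared 1 slide and 1 scan time, with PFOS replicates 1 and 2 and control replicate 1 in the first slide row and the others in the second. Before scaling, the summed signal of the 7 tested miR-30 members ran from 2709 to 4503 on PFOS and from 1814 to 2214 on control arrays, 1.79-fold higher. That is close to the general brightness difference, so the values that follow were normalised between arrays (75th percentile scaling, then cyclic loess) and are relative to the other miRNAs. They are in arbitrary units and are not comparable between miRNAs. On this normalised scale the hepatocyte miRNA miR-122, which checked the tissue, averaged 58667 in PFOS and 58487 in control livers. Of the 12 hepatocyte-list miRNAs 9 were tested, 5 with a positive and 4 with a negative log2 fold change. These ran from -0.25 to 0.23, and none passed in limma over all tested miRNAs.

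After normalisation, 4 of the 5 members from the 5p arm averaged higher in PFOS livers, by 6.81% to 12.1%. The values of miR-30c and both tested 3p strands were within 2.07% of control. The lowest and highest log2 fold changes were -0.01 for miR-30e* and 0.17 for miR-30a. None of the 7 passed at an adjusted p under 0.05 in limma with Benjamini-Hochberg adjustment over the 175 tested miRNAs, where the share called was 0% (0 of 175). At an unadjusted p under 0.05 there was 1 member, miR-30a, against 19.4% of all tested miRNAs (34 of 175). No difference of the family is therefore shown once the number of tested miRNAs is allowed for.

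For miR-30a, a reported regulator of Snai1, the normalised signals were 617, 609, 631 and 639 in the 4 PFOS livers and 566, 575 and 529 in the 3 control livers. The lowest PFOS value lay above the highest control value, and control replicate 3 was the lowest of all. The means were 624 ± 13.7 in PFOS and 557 ± 24.4 in control livers (SD, n = 4 and 3), a log2 fold change of 0.17 (SE 0.07, limma adjusted p = 0.233). Its unadjusted 95% interval was 0.01 to 0.32, a 1.01-fold to 1.25-fold ratio. Within the first slide row the difference was 0.12, and within the second 0.20.

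For miR-30e, which differs from miR-30a by a single base, the signals were 493, 486, 488 and 470.1 in PFOS livers and 451.4, 451.3 and 424 in control livers. The groups did not overlap here either, and control replicate 3 was again the lowest. The log2 fold change was 0.13 (SE 0.06, limma adjusted p = 0.351), with within-row differences of 0.12 and 0.13. These were the only 2 members whose groups did not overlap with PFOS higher, as was true of 9.71% of the tested miRNAs (17 of 175). No member had the groups apart with PFOS lower, for which the share was also 9.71%.

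The 5p strands miR-30b-5p and miR-30d, from neighbouring genes on chromosome 7, had overlapping groups. The signals of miR-30d were 273, 296, 286 and 261 in PFOS livers and 241, 264 and 246 in control livers. PFOS replicate 4 lay below control replicate 2, and the other 3 PFOS livers lay above all controls. The log2 fold change was 0.15 (SE 0.08, limma adjusted p = 0.351). It was 0.24 within the first slide row and 0.10 within the second.

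The signals of miR-30b-5p were 915, 1037, 980.5 and 969 in PFOS livers and 916, 906 and 914 in control livers. The 3 control livers lay close together, and PFOS replicate 1 fell among them while the other PFOS livers were higher. The log2 fold change was 0.10 (SE 0.07, limma adjusted p = 0.504). Within an array, miR-30b-5p minus miR-30d on the log2 scale averaged 1.81 ± 0.06 on PFOS and 1.87 ± 0.08 on control arrays (SD, n = 4 and 3). The change of -0.06 in this cluster pair was smaller than either SD.

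The signals of miR-30c were 419.8, 474, 402 and 467 in PFOS livers and 441, 462 and 416 in control livers. PFOS livers were both the 2 highest and the lowest of the 7. The log2 fold change was 0.00 (SE 0.09, limma adjusted p = 0.999678), with an unadjusted 95% interval of -0.21 to 0.22. The interval allows a change as large as the one measured for miR-30a, and whether the 2 members differ was not tested. Within arrays, miR-30a minus miR-30c averaged 0.50 ± 0.13 on PFOS and 0.34 ± 0.02 on control arrays. The groups overlapped narrowly, with PFOS replicate 2 (0.3597) just below control replicate 1 (0.3599).

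**Figure D1:**
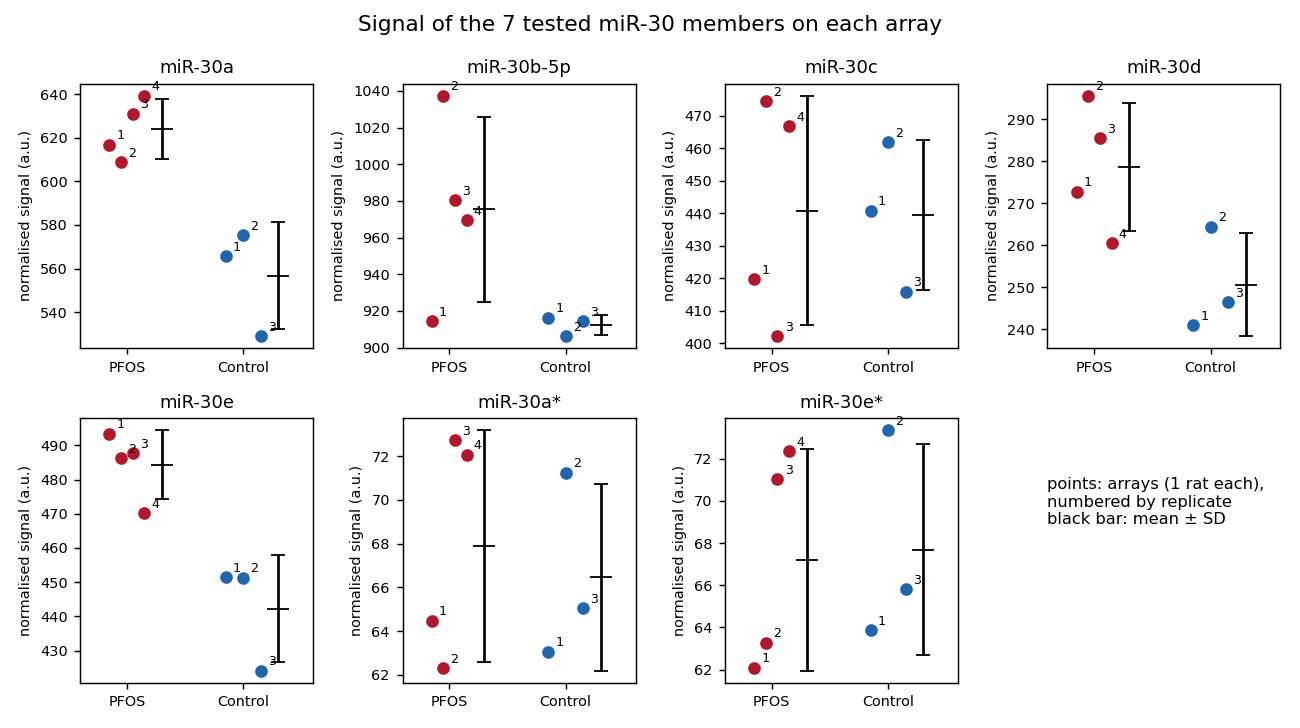
Normalised signal in arbitrary units (vertical axes, which do not start at 0) of each tested miR-30 member on the PFOS and control arrays, 1 point per rat with its replicate number and the mean ± SD in black. PFOS lies wholly above control for miR-30a and miR-30e, and the groups overlap for the other 5.

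The 3p strands, usually the degraded side of the duplex, showed another pattern. The signals of miR-30a* were 64.5, 62.3, 72.7 and 72.1 in PFOS livers and 63.1, 71.3 and 65.1 in control livers. Those of miR-30e* were 62.1, 63.3, 71.0 and 72.4 in PFOS livers and 63.9, 73.3 and 65.8 in control livers. For both, PFOS replicates 3 and 4 and control replicate 2 were the 3 highest arrays, all in the second slide row. Control replicate 3, also in that row, came next, and the arrays of the first row were the lowest. Both diet groups spanned nearly the same range. The log2 fold changes were 0.03 (SE 0.09) for miR-30a* and -0.01 (SE 0.09) for miR-30e*, with limma adjusted p of 0.980 and 0.999678. Their within-row differences were 0.01 and 0.09 for miR-30a* and -0.03 and 0.05 for miR-30e*.

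The log2 difference between the 2 strands, miR-30a* minus miR-30e*, had an SD of 0.04 over PFOS and 0.01 over control arrays, against SDs of 0.09 to 0.11 for either strand alone. The strands come from different chromosomes, and the stretch of the Mir30e precursor closest to miR-30a* matches it at 21 of 22 bases. How far their probes take up each other's RNA was not tested. The 5p strands of the same 2 precursors, also 1 base apart, separated by diet group instead. The difference miR-30a minus miR-30e had an SD of 0.06 on PFOS arrays, larger than the SD of 0.03 of either strand there. On control arrays its SD was 0.02, smaller than the 0.06 of miR-30a and the 0.05 of miR-30e.

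**Figure D2:**
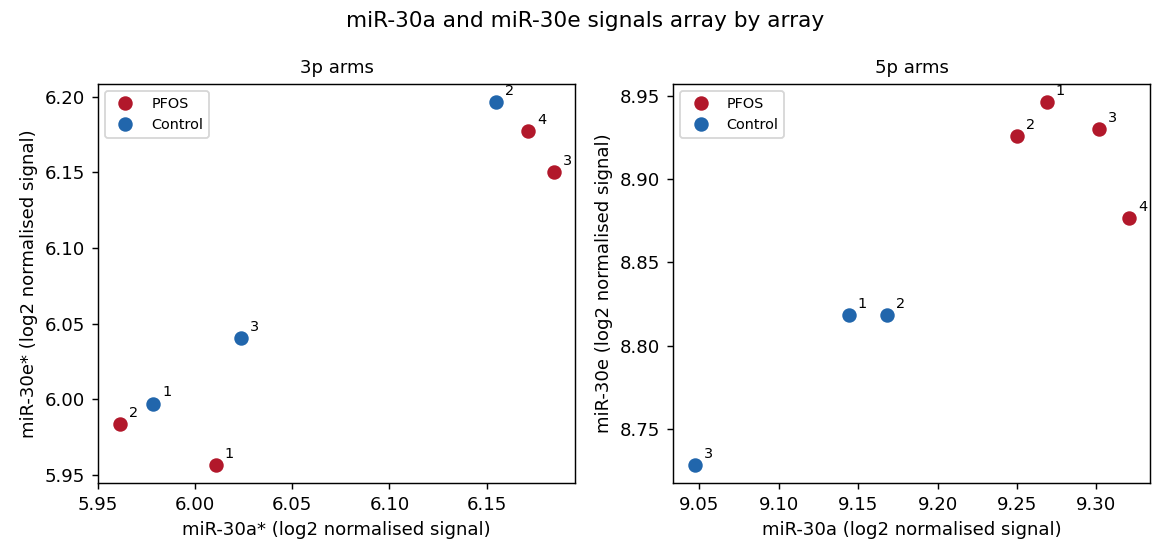
Log2 normalised signal of miR-30e* against miR-30a* (left) and of miR-30e against miR-30a (right), 1 point per array, coloured by diet group and numbered by replicate. On the left, PFOS replicates 3 and 4 and control replicate 2 lie apart from the other 4 arrays. Control replicate 3, which shares their slide row, is the highest of those 4 on both axes. On the right, the 4 PFOS arrays lie above and to the right of the 3 control arrays.

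The ratio of the 2 strands of a precursor was compared within each array, where the overall brightness cancels. The log2 ratio of miR-30a to miR-30a* was 3.26, 3.29, 3.12 and 3.15 on PFOS arrays and 3.17, 3.01 and 3.02 on control arrays. Control replicate 1 lay among the PFOS values. The mean was 3.20 ± 0.08 on PFOS and 3.07 ± 0.09 on control arrays (SD, n = 4 and 3), a difference of 0.14 (SE 0.09, limma adjusted p = 0.394 over 24 strand pairs). For miR-30e over miR-30e* the log2 ratios were 2.99, 2.94, 2.78 and 2.70 on PFOS arrays and 2.82, 2.62 and 2.69 on control arrays, again overlapping. That difference was 0.14 (SE 0.11, limma adjusted p = 0.424). Of all 24 ratios, 4.17% passed, and neither of these 2 did. Both differences were positive under each of the 12 alternatives run, at 0.07 to 0.18 for miR-30a and 0.09 to 0.20 for miR-30e. Most of these alternatives left out 1 array. The percentile scalings gave equal differences, and the filter repeated the reported ones. Ratios were not run for every processing. In the authors' deposited table the log2 fold changes were -0.074 for miR-30a, 0.042 for miR-30a*, -0.036 for miR-30e and 0.020 for miR-30e*. There the asterisk strand had the higher value in both pairs. In the same order the values were -0.23, 0.20, 0.96 and 0.067 with the median over spots. With quantile normalization they were 0.22, 0.073, 0.070 and 0.0063. With cyclic loess at equal weights they were 0.81, 1.42, 0.91 and 1.03, so the asterisk strand was again the higher in both pairs.

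The array reads each tested member with 2 probes over 20 spots. A separate fit over the 320 tested probes, with its own loess, had 14 probes of the family. Of these, 0 passed at an adjusted p under 0.05 in limma, where 0.625% of all probes did (2 of 320), and 0 had an unadjusted p under 0.05, where 18.1% did. The log2 fold change was positive for 11 of the 14 probes, against 56.6% of all tested probes, and their median was 0.10 against 0.03.

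The groups did not overlap, with PFOS higher, for 2 of the 14 probes, the brighter ones of miR-30a and miR-30e, against 12.8% of all tested probes. The 2 probes of miR-30a gave close values, 0.16 (SE 0.08) and 0.14 (SE 0.07), as did those of miR-30e at 0.09 (SE 0.08) and 0.10 (SE 0.07). The probes of miR-30c were both negative, at -0.03 and -0.04 (SE 0.11 each), with the summed value at 0.00. For miR-30d the values were 0.19 (SE 0.08) for the brighter probe and 0.09 (SE 0.09) for the dimmer one. The 2 probes of miR-30b-5p differed in sign, 0.10 (SE 0.07) for the brighter and -0.01 (SE 0.09) for the dimmer one, a gap within 2 standard errors of either. Its dimmer probe also had the largest median coefficient of variation between spots of an array, 23.8%, where the family's probes started at 6.37%. The gap between the probes had a median of 0.07 on the log2 scale over the 7 members and of 0.06 over 130 miRNAs with 2 tested probes. For both 3p strands the 2 single-probe values, 0.09 and 0.16 for miR-30a* and 0.03 and 0.15 for miR-30e*, were higher than the value of the summed probes. The dimmer probe of miR-30e* had no spot well above background on at least 1 array.

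**Figure D3:**
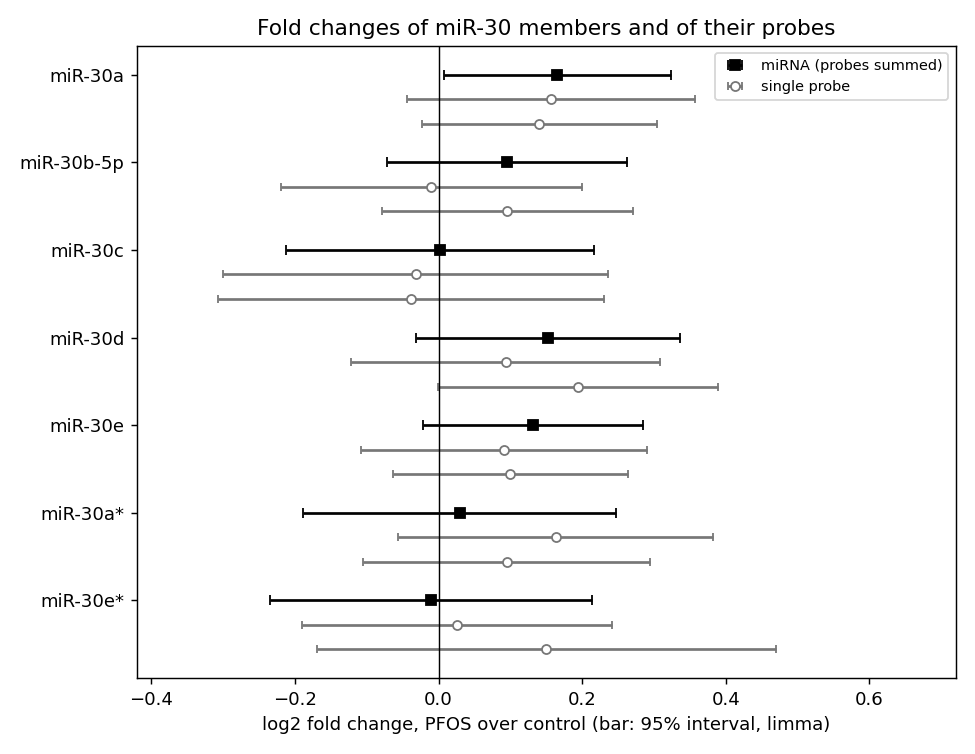
Log2 fold change of PFOS over control (horizontal axis) for each tested miR-30 member with its probes summed (black squares) and for its 2 probes alone (grey circles). Bars are unadjusted 95% intervals from limma. The interval of miR-30a, at 0.01 to 0.32, is the only one of the 7 summed values that leaves out 0, and the 2 probes of miR-30b-5p lie on either side of 0.

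Set beside the array as a whole, 6 of the 7 tested members had a positive fold change, against 45.7% of the 175 tested miRNAs (80 of 175). Their median log2 fold change was 0.10, against -0.02 over all tested miRNAs and 0.00 over those at least as bright as the dimmest member. The 5p strands had a median of 0.13 over 5, and the 3p strands of 0.01 over 2. Other seed families were listed beside it. Their medians were 0.06 for let-7 and miR-98 (10 tested, 7 positive), 0.14 for miR-29 (4 tested, 3 positive) and 0.10 for miR-26 (2 tested, both positive). They were 0.21 for miR-103 and miR-107 (2 tested, both positive) and -0.05 for the miR-15 and miR-16 family (4 tested, 0 positive). The miR-200 family, read with the epithelial list, had a median of 1.57 (3 tested, all positive). Of these, miR-429 was detected on 4 PFOS and 0 control arrays, so it entered the test only through the group where it was higher. No member of these families passed in either direction, with adjustment over all tested miRNAs in limma.

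**Figure D4:**
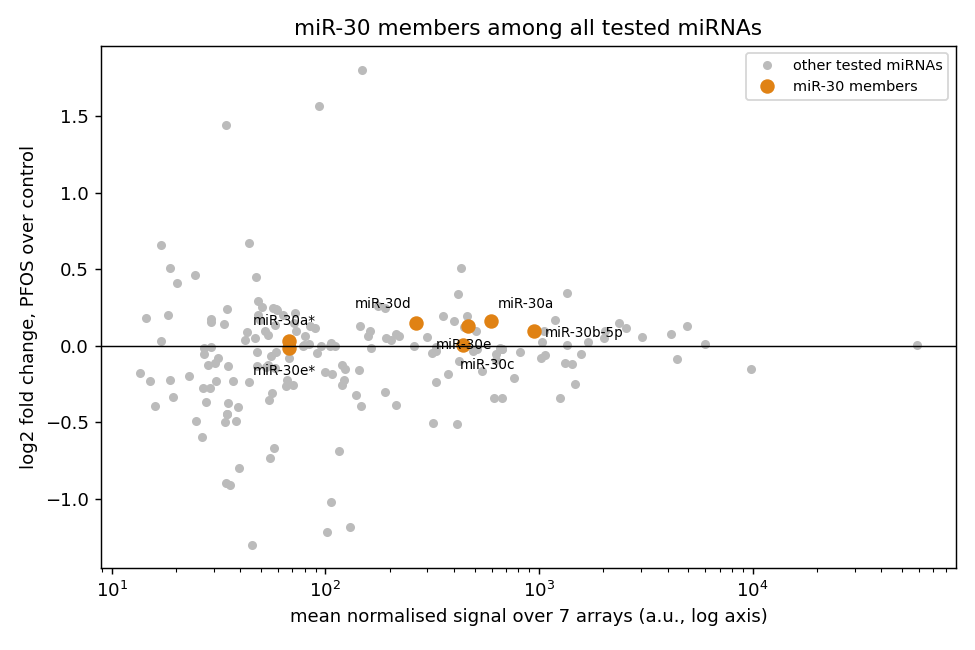
Log2 fold change of PFOS over control (vertical axis) against mean normalised signal over the 7 arrays (log axis) for the 175 tested miRNAs, with miR-30 members in orange. The members lie between -0.01 and 0.17, inside the spread of other miRNAs of like signal.

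The mean pattern of the 5p strands over the 7 arrays, each centred on its own mean log2 signal, was highest on PFOS replicate 2 (0.10) and lowest on control replicate 3 (-0.11). The tested miRNAs most like it were miR-17-5p (Pearson r = 0.958 over 7 arrays), miR-101a (0.956), miR-455* (0.934), miR-20b-5p (0.905) and miR-93 (0.873). All 5 had positive fold changes, from 0.20 for miR-101a to 0.66 for miR-455*, so part of the likeness is the group difference. After the group means were removed, r was 0.887 for miR-17-5p, 0.839 for miR-101a, 0.782 for miR-455*, 0.607 for miR-20b-5p and 0.597 for miR-93. The points share arrays and their normalisation. The 5 were picked by r over the same arrays, so neither set of r values is independent of that choice. Detection of miR-455* was on only 3 arrays, which the rule for entering the test places in a single group. Its mean signal was 20.2 in PFOS and 12.7 in control livers, the control mean being close to the floor.

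Markers of other liver cells were read beside these values. In bulk tissue, fewer cells of a type and less of the RNA per cell cannot be told apart. The epithelial list (miR-200 family and miR-141) had 3 of 9 miRNAs tested and a summed normalised signal of 371 to 608 on PFOS and 138 to 257 on control arrays. None passed in limma over all tested miRNAs, and miR-200c and miR-141 were detected on 0 arrays. The summed signals of the other lists overlapped between groups. They were 888 to 1163 on PFOS and 920 to 1130.2 on control arrays for stellate cells and fibroblasts (6 of 12 tested), and 1193 to 1533 and 1333 to 1438 for leukocytes (6 of 8). For both endothelial miRNAs they were 1714 to 1854 on PFOS and 1571 to 1936 on control arrays, and for the erythroid list (2 of 4) 457 to 1101 and 540.4 to 959.7. Each sum takes in every listed miRNA, tested or not, and can hide single members. The log2 fold changes of tested members ran from -0.23 to 0.67 in the stellate list and from -0.23 to 0.15 in the leukocyte list. None of them passed in limma over all tested miRNAs. The ends of the stellate range were miR-145 (-0.23, detected on 3 PFOS and 0 control arrays) and miR-221 (0.67, on 4 and 2). Both entered the test only through the PFOS arrays, where miR-221 was the higher. Since miR-30 is also made in epithelial cells, the part of the epithelial difference in the 5p values was not tested.

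The direction of the small 5p differences depended on the scaling. When arrays were scaled by the labelling spike-in, all 7 members were negative, with a median of -0.33, while the median of all tested miRNAs was -0.45. When scaled by the 75th percentile of all miRNAs, all 7 were positive, with a median of 0.37 against 0.25 for all tested miRNAs. These scalings shift all miRNAs of an array alike, so the family's median relative to that of all tested miRNAs hardly moves between them by construction, at 0.12 under both. It was 0.11 in the reported values, 0.05 with quantile normalization, 0.05 with the median of pixel signal over all spots and 0.05 without PFOS replicate 2. In the authors' deposited table, 4 of the 7 members were negative and the family's median was -0.04, against -0.02 for all tested miRNAs, with limma.

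The deposited table differed most for miR-30b-5p, at -0.25 (SE 0.18, limma adjusted p = 0.466) against 0.10 in the reported values. In the authors' deposited table its log2 signal was 8.22, 8.38, 7.58 and 8.18 on PFOS arrays and 8.31, 8.31 and 8.39 on control arrays, and PFOS replicate 3 stood apart. Across the 677 miRNAs, each column of that table followed the median over all spots of the log2 pixel signal (Pearson r of 0.9987 to 0.9999 across miRNAs, which are not independent replicates). Such an r does not fix the fold change of a single member. After cyclic loess that median gave 0.18 for miR-30a and 0.15 for miR-30e, against -0.074 and -0.036 in the deposited table. For miR-30a* it gave 0.048 against 0.042. Where the spots of a member's 2 probes do not overlap in signal, as in 40 of 49 combinations of member and array, that median lies in the gap between the probes. On PFOS replicate 3 the lowest spot of the brighter miR-30b-5p probe read 313, the others 593 to 1613, and the dimmer probe reached 268. The software flagged that lowest spot as an outlier, as it did the lowest spot of this probe on each of the 7 arrays. Without PFOS replicate 3 the fold change in the authors' deposited table was -0.08. The reported values leave out spots with that flag. For miR-30b-5p, the median of pixel signal over all spots, flagged ones included, gave a log2 fold change of 0.02. The median over spots without the flagged ones, taken on the processed signal after scaling and flooring, gave -0.23. The 2 medians thus differ in more than the flagged spots. What lowered the deposited value on PFOS replicate 3 was not tested.

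**Figure D5:**
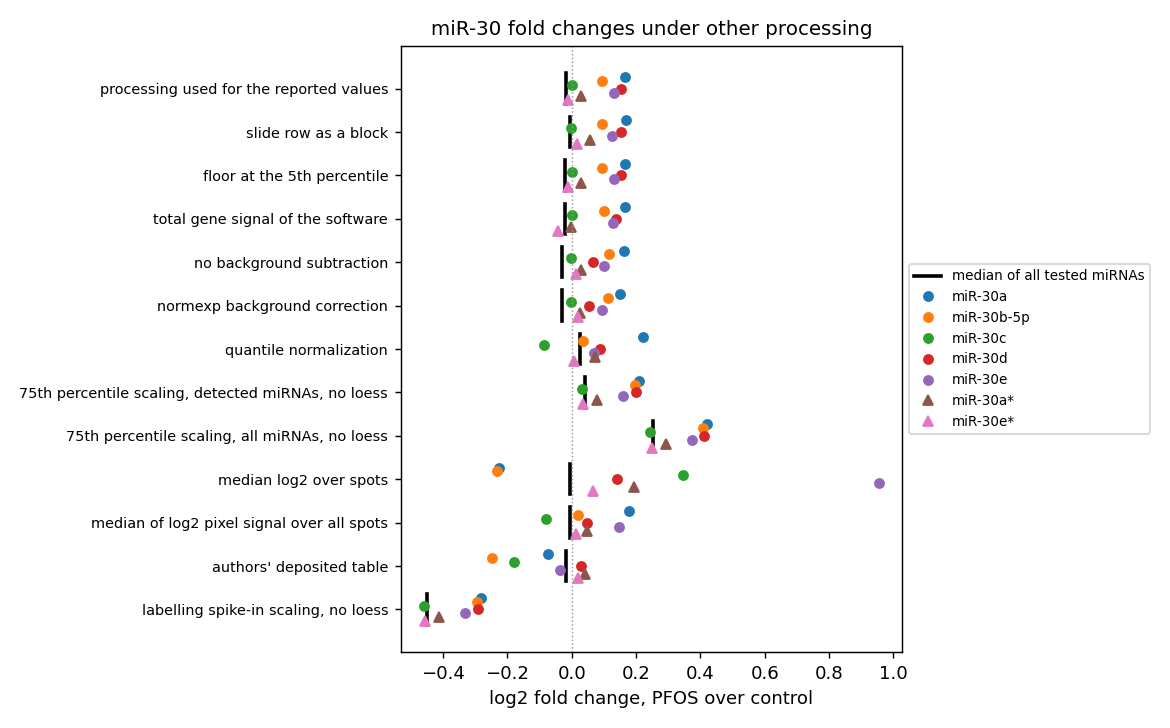
Log2 fold change of PFOS over control (horizontal axis) of the 7 tested miR-30 members under the ways of processing named on the vertical axis, with the median of all tested miRNAs as a black bar. Cyclic loess with equal weights, under which the members spread from -1.08 to 1.42, is left off. The members and the median move together between the percentile and spike-in scalings, and the members scatter under the median over spots.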

How the data were processed

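The arrays were 1-colour Agilent rat miRNA arrays, read with Feature Extraction 10.7.3.1, per the file headers. Per the file headers, the intensity used is the software's processed signal, with background and a spatial trend removed. It carries no scaling across arrays. The log2 values of the deposited table were normalized by the authors with cyclic lowess, per the labels. No setting of it is given in the sources used here.

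Spots without an outlier flag were averaged per probe, and probes were summed per miRNA. The 75th percentile over miRNAs detected on all arrays was made equal between arrays, and values were floored at the 1st percentile of detected values (12.1) and put on the log2 scale. Cyclic loess followed (span 0.7, 3 iterations, weight on those miRNAs). Groups were compared with lmFit and eBayes of limma 3.58.1 in R 4.3.3, with Benjamini-Hochberg adjustment at 0.05, separately over 175 miRNAs, 320 probes and 24 strand pairs. Files were read with the R package data.table (1.17.8), and plots drawn with matplotlib 3.10.9. Normexp ran on the median pixel signal, since no mean signal was used here. Replicate numbers only name arrays, and their number limits the precision. The labels give 1 rat per array.

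Members, lists, named miRNAs and alternatives were chosen with earlier results of these data known. Every member was named, with the seed relatives and the 5 miRNAs closest in pattern. Alternatives changed the normalization, background, spot summary, filter, floor, slide row, moderation and threshold, and left out each array.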

Additional observations from a re-analysis of the deposited data

How the results depend on the processing

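No member passed under any of the 22 alternatives run for it, and of 154 member values 115 kept their sign. The 2 detection filters cannot change the fold change of a member, so part of that count was fixed in advance. Negative values arose for miR-30a under labelling spike-in scaling (-0.28), the median over spots (-0.23) and the deposited table (-0.074), for miR-30b-5p under the same 3 (-0.30, -0.23 and -0.25), for miR-30e under spike-in scaling (-0.33) and the deposited table (-0.036), and for miR-30d under spike-in scaling (-0.29) and equal-weight loess (-1.08). The median over 2 probes of unlike brightness moves with single spots. For miR-30a* they were -0.41 with the spike-in and -0.00187 with the total gene signal. For miR-30c they were -0.46 with the spike-in, -0.086 with quantile normalization, -0.00354 with normexp, -0.00346 without background subtraction, -0.000293 with the total gene signal, -0.00265 with slide row as a block, -0.18 in the deposited table and -0.081 with the median of pixel signal over all spots. That last setting was chosen after seeing the data. For miR-30e* the sign turned positive at 0.036 and 0.25 under percentile scaling over detected and over all miRNAs, 0.0063 with quantile, 1.03 with equal-weight loess, 0.020 with normexp, 0.013 without background subtraction, 0.067 and 0.015 with the medians over spots and over all pixel signals, 0.016 with slide row as a block and 0.020 in the deposited table. Other causes were not tested.

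Leaving out 1 array gave 0.13 to 0.19 for miR-30a, 0.07 to 0.13 for miR-30b-5p, -0.036 to 0.041 for miR-30c, 0.12 to 0.20 for miR-30d, 0.11 to 0.15 for miR-30e, -0.011 to 0.074 for miR-30a* and -0.053 to 0.033 for miR-30e*.

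The family median was 0.16 and 0.37 under the 2 percentile scalings, 0.91 with equal-weight loess, -0.33 with the spike-in, 0.14 and 0.048 with the 2 medians over spots and -0.036 in the deposited table. Over all tested miRNAs, limma calls were 0 in the reported values, 3 with percentile scaling over all miRNAs, 8 with the spike-in, 22 with normexp, 18 without background subtraction, 1 with the total gene signal, 1 with miRNAs detected on at least 1 array, 4 with slide row as a block and 9 in the deposited table, none in the family. Probe calls were 2, against 0 under either percentile scaling or with probes detected on all 7 arrays, 4 with the row block and 0 to 3 without 1 array. Strand ratio calls were 1, against 2 under either percentile scaling, 2 without background subtraction, 0 with strands detected on all arrays and 0 to 1 without 1 array. No paired analysis was possible because the labels give no number shared between the groups. Of 40 measures screened on the 4 PFOS arrays, 0 held an array far from the others. With 4 values the screen can pick out only an extreme array, and control arrays were not part of it. It therefore cannot show that no array deviates.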
